A study of Homo sapiens with 2 samples.

Results

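The genes described here are 7 long noncoding RNAs, namely NEAT1 and MALAT1, which stay in the nucleus, and GAS5, SNHG1, SNHG12, SNHG8 and ZFAS1, which carry small nucleolar RNAs (snoRNAs) in their introns. Their exon rows were taken by position, whatever their values. Every row on the gene's strand inside a window around it in hg19 coordinates was used. The genes themselves were chosen with earlier results of these data known. All 7 genes were listed, with 52 rows of the 239322 in the tables, and 51 of the 52 had at least 10 reads in either library. The cells were Huh-7, a line from a human hepatocellular carcinoma, kept for 24 h either in 0.1% DMSO (control) or in 0.1 mM BS008, a derivative of the diuretic amiloride. BS008 was studied for its action on alternative splicing, and the comparison asks which noncoding RNAs differed after the treatment. With 1 library for each condition there are no replicates, so no difference below has a p-value, and every interval is a 95% interval that covers the counting of reads only.

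The libraries held 55476654 exon reads (control) and 53578432 (BS008). Levels are given as CPM, which scales a count to the library total, or, between genes, as RPKM, which also divides by length in kilobases. A count of 3 reads corresponds to 0.0541 and 0.0560 CPM, respectively. The liver genes albumin (ALB, 274038 and 308359 reads in control and BS008-treated cells), alpha-fetoprotein (AFP, 133300 and 88052 reads) and apolipoprotein A1 (APOA1, 28997 and 21372 reads) were abundant in both libraries. Mitochondrial rows held 11.8% of the control reads and 13.1% of the BS008 reads.

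NEAT1 is the RNA scaffold of paraspeckles, nuclear bodies in which its long form is bound by proteins such as SFPQ and NONO, while its short form shares the same 5′ part. MALAT1, transcribed from the neighbouring locus, lies in nuclear speckles, which are rich in splicing factors. The other members are snoRNA host genes. Their spliced exons have little or no coding potential, and many such RNAs are degraded in the cytoplasm by nonsense-mediated decay when ribosomes reach them. The introns, in contrast, are processed into snoRNAs, which are trimmed, packed with a core of proteins and guide 2′-O-methylation (box C/D type) or pseudouridylation (box H/ACA type) of ribosomal and other RNAs. Several host genes begin with a 5′ terminal oligopyrimidine, a C followed by a run of pyrimidines, which is also found at the start of ribosomal protein genes.

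The higher counts described below lay mostly on exons rather than on the snoRNAs between them, so sequences of both kinds are shown first. The ZFAS1 exons of 105, 86 and 62 bases had the lengths of 3 rows of that gene in the tables. Their sequences are those of the GENCODE transcripts, and they lie on the plus strand of GRCh38 at chr20:49279104-49279208, chr20:49280485-49280570 and chr20:49280903-49280964.
ZFAS1 exon of 105 bases: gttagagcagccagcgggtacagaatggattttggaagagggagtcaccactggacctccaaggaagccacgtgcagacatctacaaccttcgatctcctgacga
ZFAS1 exon of 86 bases: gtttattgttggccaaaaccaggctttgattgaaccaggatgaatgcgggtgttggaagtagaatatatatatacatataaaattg
ZFAS1 exon of 62 bases: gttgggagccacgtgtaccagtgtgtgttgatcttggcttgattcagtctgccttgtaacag

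The snoRNAs of the introns are short RNAs with fixed boxes. SNORD30 (chr11:62853663-62853732, minus strand) and SNORD27 (chr11:62855012-62855083, minus strand) lie in SNHG1 and are of the box C/D type, with capitals marking box C (ATGATGA or GTGATGA) and box D (CTGA). SNORA61 (chr1:28579764-28579893, minus strand) lies in SNHG12 and SNORA24 (chr4:118279190-118279320, plus strand) in SNHG8, and both are of the H/ACA type, with capitals marking the ACA box next to the 3′ end. These sequences are those of the GENCODE transcripts on GRCh38, written as DNA, and the rows of SNORD30, SNORD27, SNORA61 and SNORA24 in the tables had the same lengths.
SNORD30: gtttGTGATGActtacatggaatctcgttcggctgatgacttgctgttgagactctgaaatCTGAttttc
SNORD27: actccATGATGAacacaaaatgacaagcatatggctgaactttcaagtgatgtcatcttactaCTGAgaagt
SNORA61: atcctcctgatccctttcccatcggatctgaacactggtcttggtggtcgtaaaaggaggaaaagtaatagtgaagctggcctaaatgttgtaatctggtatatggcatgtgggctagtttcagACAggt
SNORA24: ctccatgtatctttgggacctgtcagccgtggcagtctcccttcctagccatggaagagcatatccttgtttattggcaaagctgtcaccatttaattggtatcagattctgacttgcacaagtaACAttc

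A promoter entry was found for 6 of the 7 genes in RefSeq (GRCh38.p14), and NEAT1 had none. A C at the annotated start followed by at least 4 pyrimidines was present in SNHG12 and ZFAS1, that is, in 2 of the 6 genes, and in 4.07% of all 35116 promoters of the table, read on the strand of the gene. When the run was allowed to begin within 5 bases of the start on either side, SNHG8 and 1 of the 2 annotated starts of MALAT1 were added, while the share of all promoters was 21.1%. GAS5 and SNHG1 had no such run at their annotated starts. Whether the annotated start of a gene is that of the RNA counted here was not tested. The 40 bases around the start are shown for the starts with and without such a run, with capitals marking the pyrimidine run that holds the start base. ZFAS1 lies at chr20:49278627-49278666 on the plus strand, SNHG12 at chr1:28581849-28581888 on the minus strand, SNHG8 at chr4:118278747-118278786 on the plus strand and SNHG1 at chr11:62855861-62855900 on the minus strand.
ZFAS1: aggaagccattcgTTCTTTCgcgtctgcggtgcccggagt
SNHG12: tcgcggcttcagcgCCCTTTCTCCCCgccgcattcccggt
SNHG8: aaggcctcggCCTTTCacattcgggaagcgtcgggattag
SNHG1: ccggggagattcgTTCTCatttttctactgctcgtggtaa

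At the level of whole genes, all 7 RNAs had a higher level in BS008-treated cells, although SNHG12 had a lower one when taken as the median of its rows (log2 ratio -0.33). Of the 7 genes, 5 were at least 2-fold higher, with a median log2 ratio of 1.66. Taken as medians of their rows, 2 genes were at least 2-fold higher and the median was 0.44. The tables name no genes, so no share over all genes can be set beside these counts, and over single rows the share at least 2-fold higher was 3.73%. For this, the counts of the non-overlapping rows of a gene were summed and divided by the library total. The 2 genes below 2-fold were SNHG12 and MALAT1.

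NEAT1 had the largest ratio. Its single row, 17381 bases on the plus strand at chr11:65190245-65207625 in the coordinates of the files, held 3966 reads in the control and 33262 after BS008. This corresponds to 71.5 CPM (69.3 to 73.7) and 621 CPM (614 to 628), an 8.68-fold difference (8.40 to 8.98). Because the gene is 22743 bases long in RefSeq and the row runs over its 5′ part and most of the remainder, the short and the long form were not separable and no share of either is given. The row does not have the length of a GENCODE exon of NEAT1, so the name rests on its position alone. The rows of MALAT1 and SNHG12 have no such length either, and of the 7 genes only GAS5 (10 of 18 rows) would pass the length check used for the companion genes below.

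MALAT1, in contrast, differed little. Its single row of 8705 bases (chr11:65265233-65273937, plus strand) held 25145 reads in the control and 30594 after BS008, a 1.26-fold difference (1.24 to 1.28). A row of 4135 bases on the opposite strand lies wholly within it, with 19721 and 23855 reads and a log2 ratio of 0.32, against 0.33 for the MALAT1 row. The kit is not described as marking the strand, and reads of both rows cannot be told apart here. The median row of the series had a log2 ratio of -0.04, so MALAT1 lay somewhat above it and its neighbour NEAT1 far above it.

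The rows of the snoRNA host genes spanned chr1:173833040-173837125 (GAS5, minus strand), chr11:62619461-62623360 (SNHG1, minus strand), chr1:28905052-28908383 (SNHG12, minus strand), chr4:119199914-119200974 (SNHG8, plus strand) and chr20:47894715-47905793 (ZFAS1, plus strand) in hg19 coordinates. Among them, ZFAS1, the antisense neighbour of ZNFX1 and host of the SNORD12 family, had the largest ratio. Over its 9 rows, 4085 reads fell in the control and 28924 after BS008, a 7.33-fold difference (7.09 to 7.58). SNHG1, which hosts a cluster of box C/D snoRNAs, had 5785 and 17611 reads, a 3.15-fold difference (3.06 to 3.25). GAS5, a growth-arrest-associated RNA and the host of another box C/D cluster, had 4138 and 12590 reads, and its ratio of 3.15 (3.04 to 3.26) could not be told from that of SNHG1 by counting error. SNHG8, host of SNORA24, had 1221 and 2416 reads, a 2.05-fold difference whose interval (1.91 to 2.20) includes 2-fold. SNHG12, host of SNORD99 and 3 box H/ACA snoRNAs, had 888 and 1490 reads, a 1.74-fold difference (1.60 to 1.89). As medians of their rows, snoRNA rows included, GAS5 and SNHG1 had log2 ratios of 0.44 and 0.36, within 2-fold, against 1.66 for both as sums.

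Compared per length, the order of the genes differed between the libraries. In control cells, ZFAS1 had the highest level with 61.9 RPKM and NEAT1 the lowest with 4.11 RPKM. Between them were MALAT1 (52.1 RPKM), SNHG1 (35.8 RPKM), GAS5 (34.0 RPKM), SNHG8 (29.4 RPKM) and SNHG12 (6.25 RPKM), in that order. The counting intervals of SNHG1 (34.8 to 36.7 RPKM) and GAS5 (33.0 to 35.1 RPKM) overlapped, so their order is not resolved. In BS008-treated cells, ZFAS1 stood at 454 RPKM, followed by SNHG1 at 113 RPKM and GAS5 at 107 RPKM. Over these summed lengths, both were now above MALAT1 at 65.6 RPKM. SNHG8 had 60.2 RPKM, NEAT1 35.7 RPKM and SNHG12 10.9 RPKM, so that NEAT1 was no longer the lowest by this measure. The summed lengths of SNHG1, GAS5 and SNHG12 include long rows that run over snoRNAs, and their places in the order depend on this. The place of NEAT1 depends on its single row of 17381 bases, in which the short and the long form were not separable. In the control, the SNHG1 row of 693 bases alone had 95.3 RPKM, already above MALAT1. In GAS5, the exon rows of 77 and 174 bases had 97.6 and 44.2 RPKM. After BS008, the SNHG12 row of 141 bases had 37.6 RPKM, above NEAT1. With 1 library each, the spread between cultures behind these levels is unknown.

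**Figure D1:**
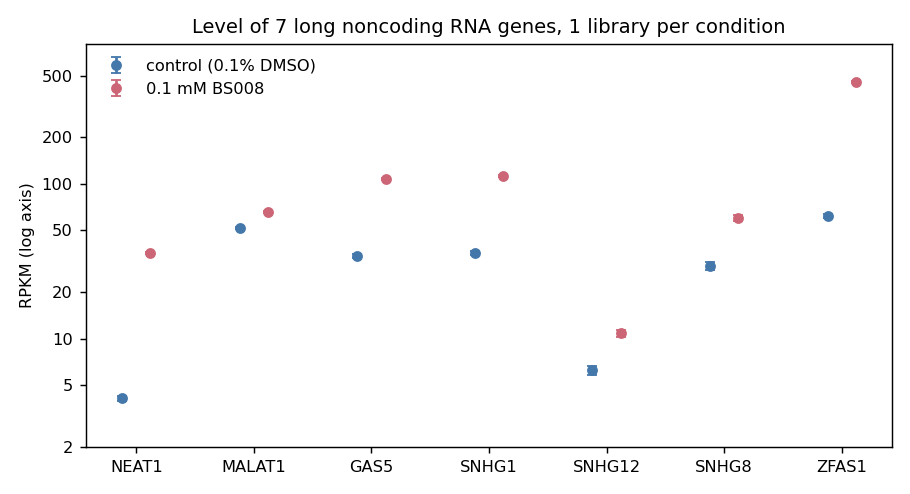
Level of the 7 genes in RPKM (log axis) in control (blue) and BS008-treated cells (red), 1 library each. Bars are 95% Poisson intervals of the counts. NEAT1 moves from 4.11 to 35.7 RPKM and ZFAS1 from 61.9 to 454 RPKM, while MALAT1 stays between 52.1 and 65.6 RPKM.

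The rows were then compared one by one. Row ratios are log2 ratios of CPM with a pseudocount of 0.5, which draws ratios of rows with few reads towards 0. Of the 51 rows, 21 were at least 2-fold higher in BS008-treated cells, against 3.73% of the 131330 rows tested in the series, and 1 was at least 2-fold lower, against 3.79%. The median over the 51 rows was 0.45, and 29 rows stayed within 2-fold. For members with 1 row the call repeats the gene's own value, and rows of one gene are not independent of each other.

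The rows of the host genes were of different kinds, and these differed. RefSeq places 28 snoRNAs in the 5 host genes, and 23 of them could be matched in order to rows of the same length (within 1 base). In GAS5, a row of 77 bases could be either SNORD81 or SNORD47, and both rows of 61 bases could be SNORD44, so that 24 rows were taken as snoRNA rows. A further 6 long rows overlapped snoRNA rows, and the 20 other rows of the 5 genes are called host rows here. Of the 20 host rows, 14 were at least 2-fold higher and 0 lower, with a median log2 ratio of 1.54. Of the 23 snoRNA rows tested, 1 was at least 2-fold higher (4.35%) and 1 lower, with a median of -0.27. Over all rows tested in the series, 3.73% were at least 2-fold higher and 3.79% lower. The share of snoRNA rows called higher was thus near that of the series. Of the 6 long rows, 5 were at least 2-fold higher, and whether their counts include reads of the snoRNA rows within them is not stated.

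**Figure D2:**
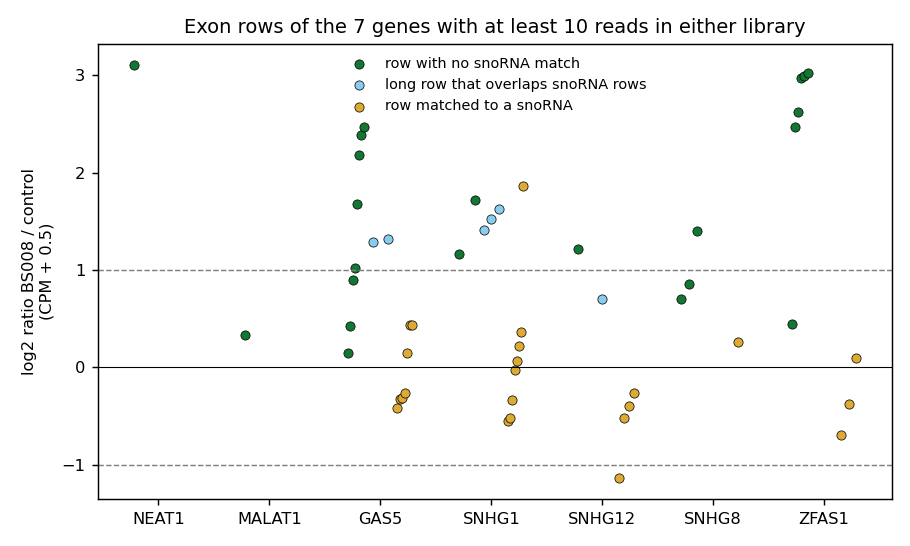
Log2 ratio of BS008 to control (CPM + 0.5) of each tested row of the 7 genes, by kind of row. Each point is 1 row, and dashed lines mark 2-fold. Rows matched to a snoRNA lie between -1.14 and 0.44 except for the SNORD25 row of SNHG1 at 1.86, whereas the rows with no snoRNA match reach 2.46 in GAS5 and 3.03 in ZFAS1.

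In ZFAS1 the exon rows stood far above the snoRNA rows. The row of 105 bases, whose sequence is given above, held 1020 reads in the control and 8225 after BS008, a log2 ratio of 3.03. The row of 86 bases held 891 and 7060 reads, and the row of 234 bases at the 5′ side held 615 and 4857. Ratios were somewhat lower towards the 3′ side, where the row of 62 bases held 585 and 3243 reads and the last row, of 212 bases, 900 and 5493. The snoRNA rows between these exons went the other way or had few reads. SNORD12B had 49 reads in the control and 19 after BS008, SNORD12 had 15 and 5, and SNORD12C had 9 and 11. The first row, of 220 bases, had 1 and 11 reads and passed the count minimum only through the BS008 library. It overlaps a row of the opposite strand with 16 and 21 reads. Summed over rows, the host rows of ZFAS1 had a log2 ratio of 2.90 and its snoRNA rows of -1.01, a difference of 3.91 (3.33 to 4.49).

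GAS5 showed the same division, with a wide range among its exons. Its 3 largest ratios were those of short rows in the middle of the gene. The row of 38 bases held 231 and 1352 reads (control and BS008), the row of 77 bases downstream of it in the gene held 417 and 2218, and the row of 30 bases held 283 and 1337, with log2 ratios of 2.46, 2.39 and 2.18. At the 3′ end, the row of 174 bases held 427 and 1380 reads. At the 5′ end, the first row, of 28 bases, held 120 and 238 reads and the row of 120 bases held 183 and 387, which places both close to 2-fold. The row of 43 bases (44 and 50 reads) differed less. The row of 53 bases had 10 and 22 reads, a CPM ratio of 2.28 that the pseudocount draws to a log2 ratio of 0.42. Both have no snoRNA match and were left among the host rows.

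The snoRNA rows of GAS5 stayed within 2-fold. The row that can be SNORD81 or SNORD47 had 177 reads in the control and 192 after BS008, SNORD80 had 127 and 85, SNORD79 had 80 and 114, and SNORD76 had 201 and 149. The rows of 61 bases had 70 and 49 reads and 33 and 22 reads, and SNORD74 had 18 and 33. The SNORD75 row, with 1 and 7 reads, was the row below the count minimum. The long rows over the snoRNAs, of 1026 bases (1693 and 4102 reads) and 269 bases (528 and 1279 reads), had log2 ratios of 1.31 and 1.28. Host rows of GAS5 had a log2 ratio of 2.08 and snoRNA rows of -0.07, a difference of 2.14 (1.97 to 2.32).

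In SNHG1, most reads fell on the row of 693 bases at the 3′ end, with 3663 in the control and 11693 after BS008 (log2 ratio 1.72). The row of 33 bases held 182 and 426 reads. The long rows of 780 bases (1016 and 3082 reads), 264 bases (383 and 1113) and 1001 bases (461 and 1232) all exceeded 2-fold. The snoRNA rows were again apart, with 1 exception. SNORD30, shown above, had 57 reads in the control and 29 after BS008, SNORD22 had 130 and 79, and SNORD29 had 83 and 58. SNORD31 (48 and 45 reads), SNORD26 (88 and 90), SNORD27 (31 and 39) and SNORD28 (23 and 36) differed by less than 2-fold as well. The exception was SNORD25, whose row of 66 bases near the 5′ end held 49 and 243 reads, a log2 ratio of 1.86. It lies inside the long row of 1001 bases. With SNORD25 included, the host rows of SNHG1 had a log2 ratio of 1.71 and the snoRNA rows of 0.33, a difference of 1.37 (1.20 to 1.55). Without SNORD25, the snoRNA rows held 460 and 376 reads, a log2 ratio of -0.24.

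SNHG12 had the lowest level of the host genes, and its gene value rested on 1 long row. That row, of 2339 bases, overlaps 3 snoRNA rows and held 747 reads in the control and 1194 after BS008, a log2 ratio of 0.71. The single host row, of 141 bases, held 111 and 284 reads (log2 ratio 1.21). It overlaps by 5 bases a row of the opposite strand with 81 and 70 reads. SNORA61, shown above, was the only row of the 7 genes that was at least 2-fold lower with the pseudocount, with 111 and 34 reads (log2 ratio -1.14). SNORD99 (30 and 12 reads), SNORA44 (25 and 12) and SNORA16A (23 and 14) were lower as well, within 2-fold on this scale. Without the pseudocount, SNORD99, SNORA44, SNORD12B and SNORD12 also passed 2-fold, with CPM ratios of 0.414, 0.497, 0.401 and 0.345. On the higher side, the GAS5 rows of 28 and 53 bases and the ZFAS1 row of 220 bases did so. The host row and the snoRNA rows of SNHG12 had log2 ratios of 1.41 and -1.34, a difference of 2.75 (2.24 to 3.25). Taken as the median of its rows, SNHG12 had a log2 ratio of -0.33, opposite in sign to the summed value of 0.80.

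SNHG8 was the gene in which the division was not resolved. Its row of 379 bases at the 5′ end held 377 reads in the control and 1005 after BS008, the row of 43 bases held 272 and 497, and the row of 196 bases at the 3′ end held 554 and 888. The SNORA24 row had 18 and 26 reads. Host rows had a log2 ratio of 1.04 and the snoRNA row of 0.58, and the difference of 0.46 had an interval from -0.41 to 1.33, which includes 0.

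Over the 5 host genes together, host rows held 10886 reads in the control and 50666 after BS008, while the snoRNA rows held 1496 and 1403. The division was thus present in 4 of the 5 host genes beyond counting error. The reads of a snoRNA row can come from the snoRNA or from host RNA that still holds the intron, and exon counts do not separate these sources. The methods of the paper name an mRNA kit, and snoRNAs carry no long poly(A) tail. These counts are therefore not taken as levels of the mature snoRNAs.

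**Figure D3:**
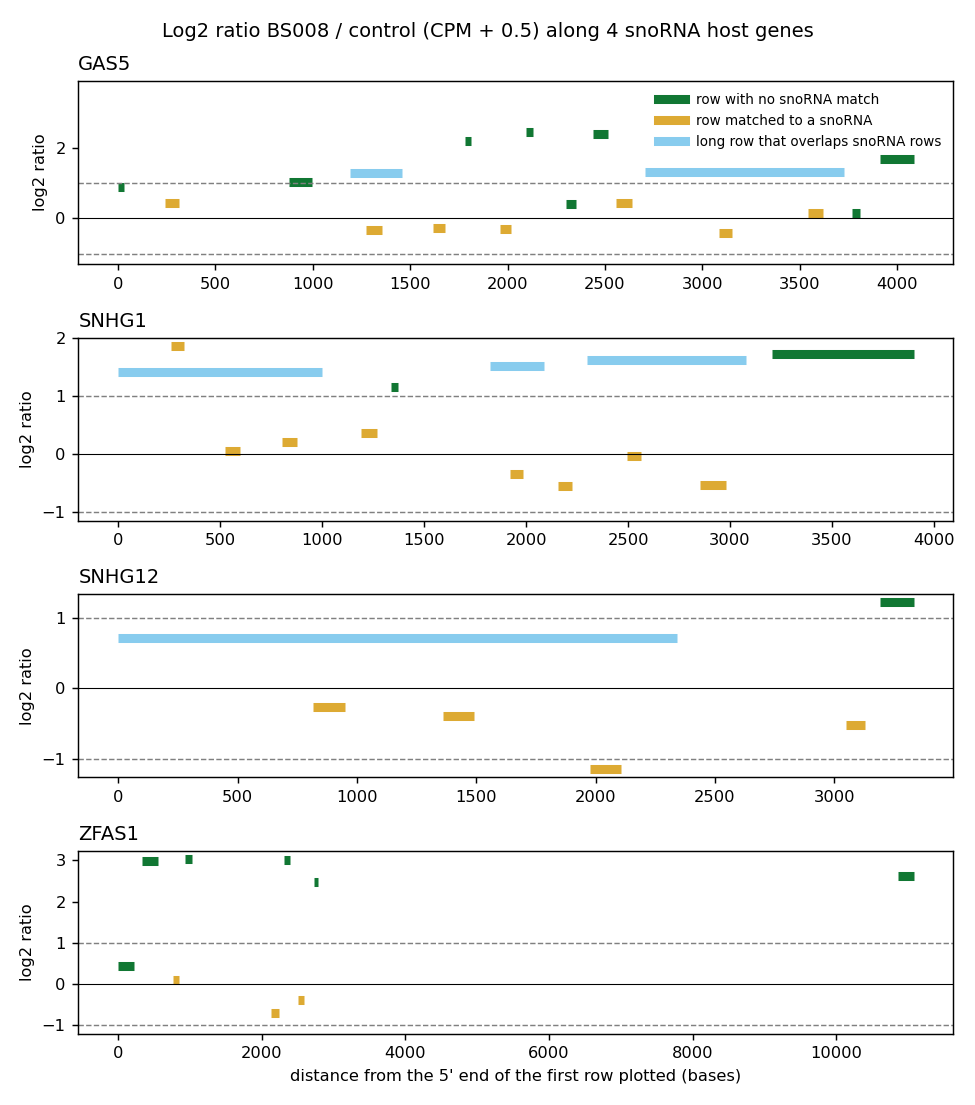
Log2 ratio of BS008 to control (CPM + 0.5) of each tested row along GAS5, SNHG1, SNHG12 and ZFAS1, drawn to scale from the 5′ end (bases) and coloured by kind of row. Dashed lines mark 2-fold. Some snoRNA rows lie between exon rows and others within long rows. The snoRNA rows are near or below 0 except for SNORD25 at the 5′ end of SNHG1.

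The shares of reads within a gene followed from these ratios. In GAS5, the row of 77 bases held 10.1% of the gene's summed reads in the control and 17.6% after BS008, a difference of 7.54 percentage points (6.38 to 8.65, Newcombe interval). The row of 38 bases gained 5.16 points and the row of 30 bases 3.78 points, while the long row of 1026 bases went from 40.9% to 32.6%, a difference of -8.33 points, or of -1.65 points as a share of RPKM. In SNHG8, reads were placed more towards the 5′ end, with 30.9% on the row of 379 bases in the control and 41.6% after BS008, a difference of 10.7 points (7.43 to 13.9), or of 4.33 points as a share of RPKM. The row of 196 bases at its 3′ end went from 45.4% to 36.8%. In ZFAS1, the row of 105 bases gained 3.47 points (2.02 to 4.87), and the last row changed by -3.04 points (-4.41 to -1.72). In SNHG1, the row of 693 bases held 63.3% and 66.4%, a difference of 3.08 points (1.66 to 4.51), or of 7.18 points as a share of RPKM. In SNHG12 the row of 141 bases held 12.5% and 19.1%, a difference of 6.56 points, or of 22.2 points as a share of RPKM. The 2 genes with 1 row allow no share.

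Genes of paraspeckle proteins, core proteins of snoRNA particles, nonsense-mediated decay factors and other noncoding RNAs were compared in the same way. Genes of these 4 lists were located by position. A gene was kept where at least 50% of its rows had the length of a GENCODE exon of that gene. The 4 paraspeckle proteins reported here could all be used, and 0 were at least 2-fold higher while 2 were at least 2-fold lower, with a median log2 ratio of -0.60. Over single rows of the series, 3.73% were at least 2-fold higher and 3.79% lower, and no such share over genes is at hand for the lists. TARDBP, an RNA-binding protein (TDP-43) found in paraspeckles, had 13792 reads in the control and 3046 after BS008, a log2 ratio of -2.13. Most of its control reads lay on the last row, of 3368 bases (9439 and 1606 reads, log2 ratio -2.49). The other rows were lower as well, with log2 ratios from -0.75 on the first row to -1.62. SFPQ, which is needed to form paraspeckles, had 31783 and 14372 reads, a log2 ratio of -1.09. At its 3′ end, the rows of 94 bases (53 and 96 reads) and 81 bases (217 and 283) were higher. The other rows summed for SFPQ were lower, with log2 ratios from -0.65 to -1.40. NONO, the partner of SFPQ, had 39847 and 39213 reads (log2 ratio 0.03). PSPC1, another paraspeckle protein, also stayed within 2-fold as a sum (log2 ratio -0.11). Its rows of 898 bases (82 and 198 reads) and 100 bases (21 and 75) at the 3′ end had log2 ratios of 1.08 and 1.11. All its other rows stayed within 2-fold.

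Of the core proteins of snoRNPs, 7 of 8 could be used. NOP56, a core protein of box C/D particles, was at least 2-fold lower when summed over rows, with 31995 reads in the control and 15214 after BS008 (log2 ratio -1.02). The other 6 stayed within 2-fold, with a median of -0.19 over the 7. With TMM or DESeq2 scaling, NOP56 was within 2-fold as well (log2 ratios -0.97 and -0.99). NOP56 is itself a host of snoRNAs, and rows of these were not separated. The lower counts of NOP56 lay mostly towards its 3′ end, from the row of 281 bases (2123 and 942 reads) on. There, the row of 138 bases held 6706 and 2262 reads and the last row, of 1020 bases, 9725 and 3790. Only the rows of 70 bases (87 and 107 reads) and 72 bases (172 and 232) were higher there. Upstream, the row of 188 bases held 1410 and 1193 reads, and only the row of 73 bases (128 and 52 reads) had a CPM ratio past 2-fold. Of the 7 nonsense-mediated decay factors, 0 were past 2-fold in either direction, with a median of 0.10. The largest ratios were those of UPF2 (3871 and 5781 reads, log2 ratio 0.63) and UPF3B (log2 ratio 0.60), both of which join the decay factor UPF1 on the RNA. UPF1, an RNA helicase, had a log2 ratio of -0.56.

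Of 11 other noncoding RNAs, 5 passed the length check, and 2 of the 5 were at least 2-fold higher, with a median log2 ratio of 0.64. Both are snoRNA hosts. Without the length check, which was not applied to the 7 genes, 4 of the 11 were at least 2-fold higher, with a median of 0.11. EPB41L4A-AS1, host of SNORA13, had 176 reads in the control and 1201 after BS008, a log2 ratio of 2.82. SNHG17, host of the SNORA71 family, had 2414 and 8808 reads, a log2 ratio of 1.92. TUG1, a long intergenic RNA, had 7009 and 3503 reads and a log2 ratio of -0.95, within 2-fold.

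**Figure D4:**
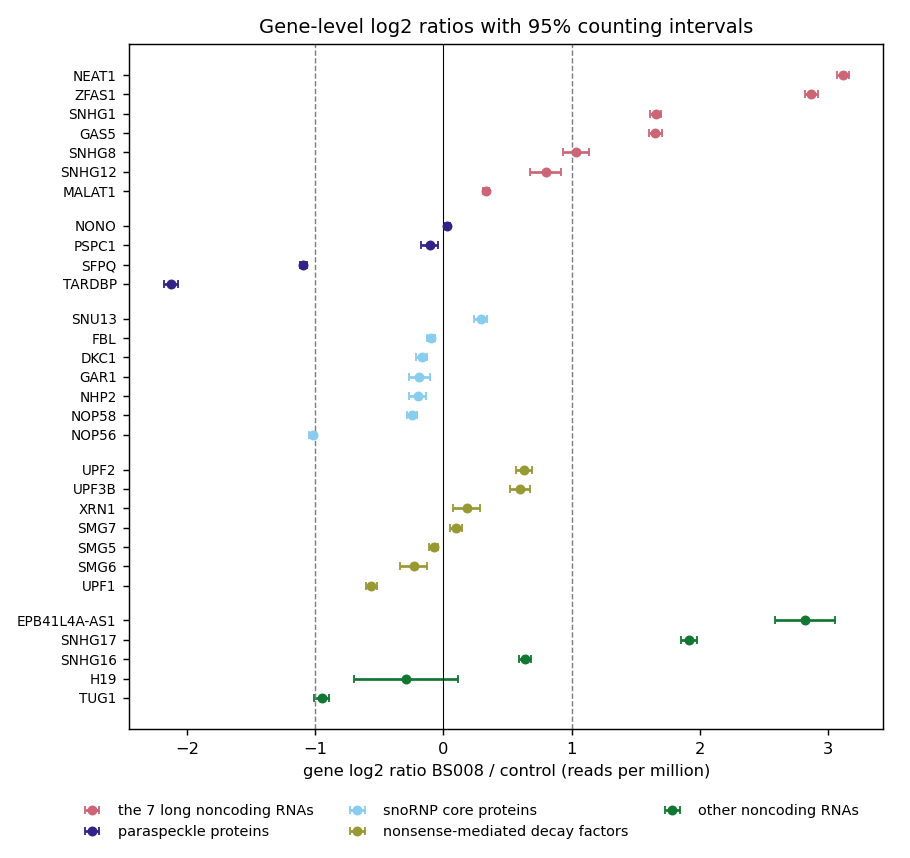
Gene log2 ratios of BS008 to control (CPM, no pseudocount) for the 7 genes and the 4 companion lists that passed the length check, with 95% counting intervals. Dashed lines mark 2-fold. NEAT1 and ZFAS1 lie near 3, the paraspeckle proteins between -2.13 and 0.03, and the nonsense-mediated decay factors between -0.56 and 0.63.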

How the data were processed

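RNA of Huh-7 cells was sequenced with an mRNA kit, 1 library per condition. The kit is named in the methods of the paper, while its results speak of whole-RNA sequencing. One protocol field gives both samples the BS008 wording, and the groups follow the treatment characteristic. For 239322 exon rows the authors deposited raw read counts, without gene names, together with RPKM values, which the counts, row lengths and library totals returned to within 4.72e-06. The build is hg19 per the submitters' processing notes. The aligner, the counting tool and the annotation are not given in the sources used here.

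Members, gene lists and tests were chosen with earlier results of these data known, and the snoRNA matching, the overlap handling and the length check variant after the files had been seen. All 7 members and their rows are named. In the companion lists, genes past 2-fold are named, otherwise the 2 with the largest absolute log2 ratio among those with at least 100 reads in the higher library. NONO, PSPC1, UPF1 and TUG1 were added after their values were seen. A further gene fixed for the paraspeckle list is not reported here.

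Gene counts are sums over non-overlapping rows, the longest kept. CPM intervals are exact Poisson, ratio intervals exact conditional binomial, share intervals Wilson and Newcombe, all at 95%. The interval of a difference between host and snoRNA rows is a normal approximation on the log scale. Reads are not deduplicated molecules, so intervals cover counting error only. Row ratios used a pseudocount of 0.5 CPM and at least 10 reads in either library, and calls a 2-fold threshold. The reference at hand (GENCODE release 29 and RefSeq) is on GRCh38, so only lengths, names and the order of neighbours were taken from it, and 19 of the 52 rows have the length of a GENCODE exon of their gene. No coordinates were converted. Alternatives were other scalings (edgeR 4.0.16 TMM factors, DESeq2 1.42.0 size factors, totals without mitochondrial rows), pseudocounts, count minimums, thresholds and ways to combine rows. The scripts were tested on simulated data. R 4.3.3, Python 3.11.15, numpy 2.4.6, pandas 2.3.3, scipy 1.17.1 and matplotlib 3.10.9 were used.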

Additional observations from a re-analysis of the deposited data

How the results depend on the processing

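With 1 library per condition there was no replicate to leave out. No paired analysis was possible because the groups share a single replicate number. NEAT1 has 1 row, so the share of its 5′ part and the density alternative were not computed, and NEAT1 and MALAT1 allow no value without their largest row.

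The median log2 ratio over the 7 genes, 1.66, was 0.44 when each gene was taken as the median of its rows, 1.45 with summed RPKM and 1.54 with overlapping rows summed. With medians of rows, 2 genes instead of 5 were at least 2-fold higher (ZFAS1 at 2.47 and NEAT1), GAS5 (0.44), SNHG1 (0.36) and SNHG8 (0.78) were within 2-fold and SNHG12 turned to -0.33. With host rows only, 6 genes were, SNHG12 included (1.41). SNHG8 fell below 2-fold with summed RPKM (0.93). The number of rows at least 2-fold higher, 21, ranged from 20 to 23 with other pseudocounts, scalings and count minimums, and 25 rows were at least 1.5-fold higher. The number lower, 1, was 2 with a pseudocount of 0.1, 0 with a pseudocount of 1 and 2 at a 1.5-fold threshold. The median of the paraspeckle proteins, -0.60, was -0.55 with TMM factors. That of the decay factors, 0.10, was 0.15 with TMM factors, and that of the other noncoding RNAs, 0.64, was 0.11 without the length check, which adds 6 genes. Of the 6 genes with a promoter entry, 2 had a pyrimidine start at the first base and 4 within 5 bases. Per length, the gain in share of the SNHG12 row of 141 bases was 22.2 points instead of 6.56, that of the SNHG8 row of 379 bases 4.33 instead of 10.7 and that of the SNHG1 row of 693 bases 7.18 instead of 3.08, and the difference of the GAS5 row of 1026 bases was -1.65 points instead of -8.33. With each of the 3 scalings, the counts of 5 genes and of 21 and 1 rows stayed as they were.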

Other observations

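Other snoRNA hosts outside the 7 genes showed both patterns. In SNHG5, host of SNORD50A and SNORD50B, the host row had 461 reads in the control and 1246 after BS008 (log2 ratio 1.48), while its snoRNA rows had 23 and 3. In EPB41L4A-AS1, the host rows had a log2 ratio of 2.88 on 168 and 1196 reads, and the SNORA13 row had 8 and 5 reads. SNHG17 was different, since its 4 snoRNA rows had 86 and 304 reads, a log2 ratio of 1.87, against 1.92 for its host rows, a difference of 0.05 (-0.30 to 0.40). SNHG15 lay between these, with log2 ratios of 1.92 on its host row and 0.70 on its SNORA9 row, a difference of 1.23 (0.32 to 2.14). SNHG16, host of the SNORD1 family, had 5385 and 8086 reads on its non-overlapping rows, a log2 ratio of 0.64. Its snoRNA rows, which are part of this sum, had 8 and 3 reads. The windows of SNHG5 and SNHG15 did not pass the length check, so their names rest on position alone. DANCR, host of SNORA26, had 7282 and 4769 reads, a log2 ratio of -0.56, and did not pass that check either.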
